A study of Mus musculus with 2 samples.

Results

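Tcf7-negative non-dividing CD8 cells were taken from the spleen of anti-IL-2-treated transplant recipients by the values of 5 genes. A cell belonged to the group when its deposited value was above 0.7 for Cd8b1, the beta chain of the CD8 co-receptor, and at most 0.7 for Cd4, for Tcf7 and for the division genes Mki67 and Top2a. Only cells with 200 or more genes above 0.7 were considered. There were 129 such cells, 16.6% of the 778 CD8 cells of the library (95% interval 14 to 19.4%) and 9.63% of its 1340 kept cells, out of 1551 anti-IL-2 cells and 3239 cells in the series. They are called the members below. The other 649 CD8 cells comprised 70 Tcf7-positive non-dividing cells, 474 Tcf7-negative dividing cells and 105 Tcf7-positive dividing cells.

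The recipients were lethally irradiated BALB/c mice given spleen and marrow cells from C57BL/6 donors, so that donor T cells met a host of another MHC type. They received either a monoclonal antibody to IL-2 or tacrolimus, a calcineurin inhibitor, from day 0 to day 6, and spleen cells were taken on day 6. Each treatment had 1 single-cell 5′ RNA library, and whether animals were pooled is not stated. With 1 library a treatment no difference was tested: every share is given with an exact 95% binomial interval where it carries a result, and these intervals cover counting error only. The matched T cell receptor libraries were not analysed here.

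Tcf7 encodes TCF1, a transcription factor that is high in naive, memory and stem-like CD8 T cells and is turned down as CD8 T cells become cytotoxic effectors. Effector CD8 T cells kill with perforin and granzymes and recruit other cells with chemokines such as CCL3, CCL4 and CCL5. IL-2 from activated T cells is a growth and differentiation signal for such effectors, and interleukin-7, read by the receptor chain Il7r, is a survival signal for resting and memory T cells.

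The anti-IL-2 values had been shifted by a batch integration and the tacrolimus values had not. Among all anti-IL-2 values 13.89% were below 0, and for some genes cells with no transcript sat above 0.7. Shares are therefore given as cells above 0.7, and beside them, where the reading changes, as the share with at least 1 unique molecule (UMI) after an estimated shift was removed, called the shift-removed share. A gene was called in more or in fewer members when the share reached 5% in either group, differed by at least 10 percentage points and differed at least 1.5-fold.

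The 3 genes given for the group were checked first. Cd8b1 was part of the rule, and its partner Cd8a was above 0.7 in 93.8% of members. Ccl5, a chemokine of effector and memory CD8 T cells, was above 0.7 in 114 of 129 members (88.4%, 81.5 to 93.3%), with a shift-removed share of 77.5%. Klrg1, a receptor of terminal effector cells, was above 0.7 in 25 members (19.4%, 12.9 to 27.3%), with a shift-removed share of 10.1% (5.48 to 16.6%). Most members therefore carried the chemokine and a minority carried Klrg1, so the group is named by its rule and not as terminal effector cells.

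**Figure D1:**
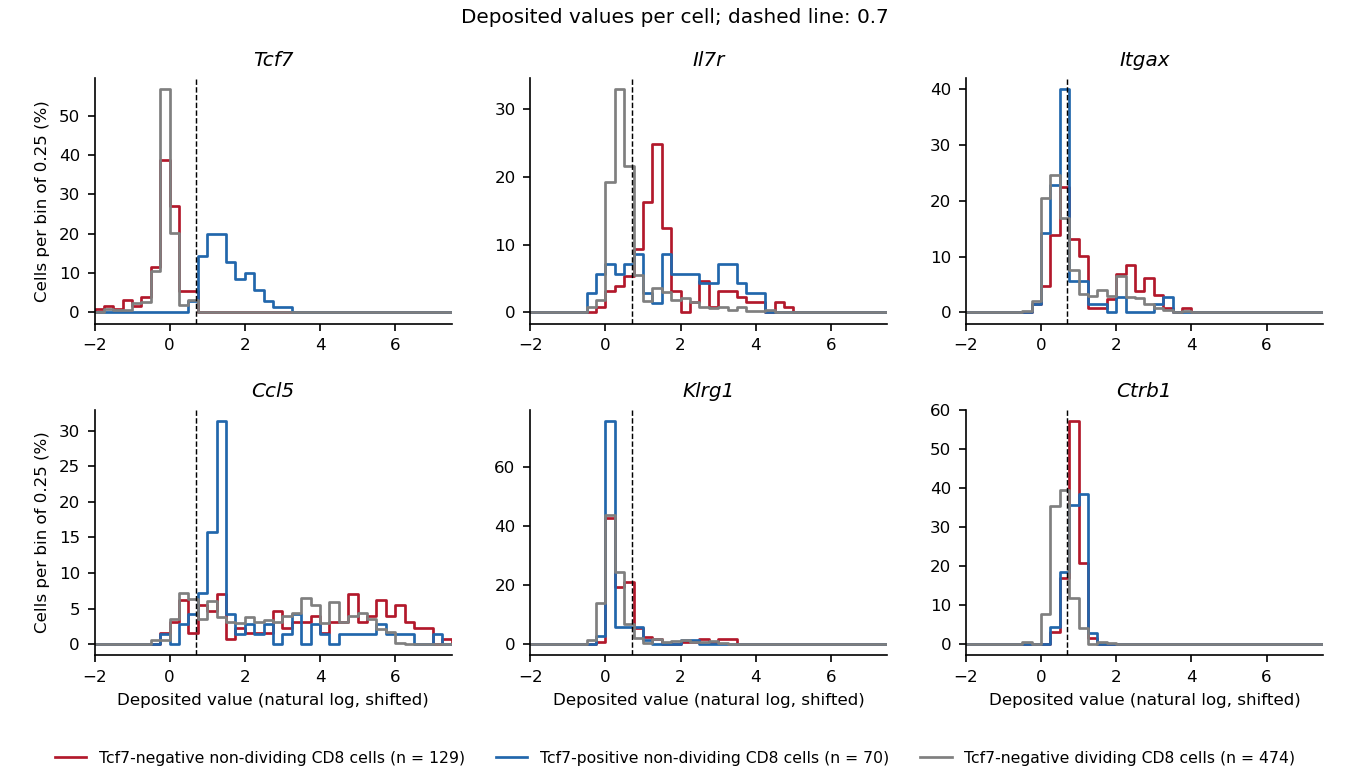
Share of cells (y axis, percent per bin of 0.25) by deposited value (x axis, shifted natural log) for 6 genes in the 129 members, 70 Tcf7-positive non-dividing and 474 Tcf7-negative dividing CD8 cells; the dashed line is 0.7. The members' Tcf7 values stop at the line by the rule, their main Il7r peak lies above it although the shift-removed share is 45.7%, and nearly all Ctrb1 values crowd around it.

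The Tcf7 values of the members had a median of -0.03 and a highest value of 0.686. Near the threshold, 7 members had Tcf7 values above 0.5 and up to 0.7, and 8 Tcf7-positive non-dividing cells had values above 0.7 and up to 0.9. After the shift was removed, a Tcf7 UMI was found in 28 of the 129 members (21.7%), so by this estimate the group held cells with some Tcf7 transcript. Of the division genes in the rule, no Mki67 UMI remained in any member under the same reading, a count of 0 that allows a share of up to 2.33%, and Top2a UMIs were found in 3 members, as the rule sets. Division genes outside the rule were still found: Birc5, an inhibitor of apoptosis made in dividing cells, had a shift-removed share of 32.6% in members and 21.4% in Tcf7-positive non-dividing cells, and was above 0.7 in 40.3% of members and 62.9% of Tcf7-positive non-dividing cells. With the shift removed, 10 members and 1 Tcf7-positive non-dividing cell held at least 2 of 5 division markers (Mki67, Top2a, Ccna2, Cdk1 and Birc5). Of 57 measured mitosis genes, 30 reached the minimum share with the shift removed and 31 above 0.7. With the shift removed, 5 (Ccnb2, Birc5, Cenpa, Stmn1 and Cks1b) were in more members than Tcf7-positive non-dividing cells, against 6.69% of all genes. Above 0.7 only Birc5 was called, in fewer members, against 8.05% of all genes. Tcf7 lies at chr11:52252371-52283014 and Cd8b1 at chr6:71322788-71337494 (mm10, GENCODE M21).

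The members had a median of 287 genes above 0.7 and a fitted median of 11323 UMIs per cell, against 283.5 genes and 10043 UMIs in Tcf7-positive non-dividing cells and 436 genes and 17937 UMIs in Tcf7-negative dividing cells. The non-dividing groups were thus of like depth, and the dividing cells were deeper. Markers of B, myeloid and erythroid cells were rare in members by shift-removed shares: 3 of 5 B-cell markers, 1 of 6 myeloid markers and 4 of 6 erythroid markers were at 0, and the highest shares were 9.3%, 3.1% and 3.88%. The 3 measured NK markers (Klrb1c, Tyrobp and Eomes) ranged from 0.775% to 36.4% of members, and 4 CD4 T markers from 0.775% to 5.43%. No gamma-delta T or dendritic marker was measured. No doublet caller was run. Cells of the B, myeloid and erythroid lineages served as a background: the shift-removed shares of Gzmb and Ccl5 were 98.5% and 77.5% in members, against 4.26% for each gene in 47 of those cells, whose fitted median was 6468 UMIs. The libraries shared 4 cell barcodes.

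Compared with Tcf7-positive non-dividing CD8 cells, more of the members held transcripts of Ifng, Gzmk, Ccl3 and Ccl4, and fewer held those of Id3, Nsg2, Ccr7 and Cxcr5. Of 783 genes at a share of 5% or more, 35 were in more members (4.47%) and 63 were in fewer members (8.05%). With the shift removed the counts were 52 (6.69%) and 56 (7.21%), and 32 and 51 genes were called in both readings. Thinned to 6000 UMIs per cell, 5.66% of genes were in more members and 6.26% in fewer. The median log2 ratio of shares over all these genes was -0.01. Ifng, which encodes interferon-gamma, was among the genes in more members: it was above 0.7 in 39 members (30.2%, 22.5 to 38.9%) and in 3 of 70 Tcf7-positive cells (4.29%, 0.893 to 12%).

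**Figure D2:**
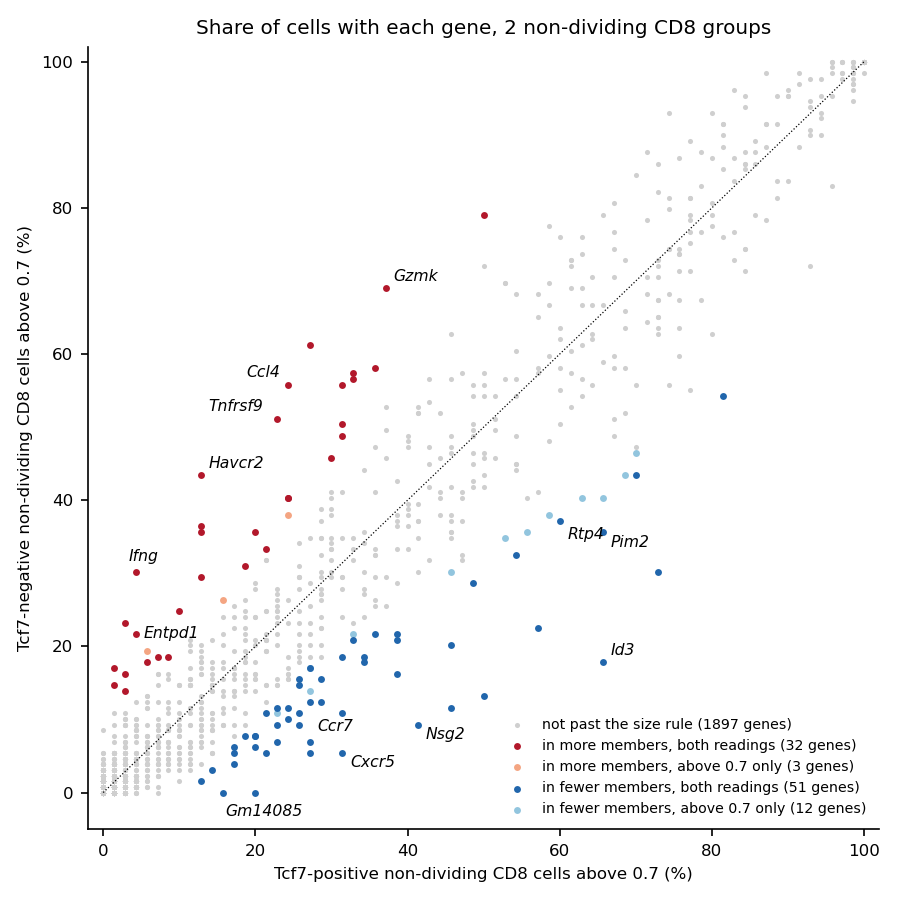
Each point is a gene other than those of the rule, with its share of cells above 0.7 in members (y axis, percent) and in Tcf7-positive non-dividing CD8 cells (x axis, percent); the dotted line marks equal shares. Red and blue genes passed the size rule in both readings (32 in more and 51 in fewer members), and pale ones above 0.7 only.

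RefSeq promoter windows (GRCm38.p6, from 250 bases before to 50 bases after the start) are shown for Ifng and Gzmk, which were in more members, and Id3, which was in fewer members. Capitals mark CTTTGA, a core of the DNA motif read by TCF1, searched on both strands. The windows are Ifng at chr10:118440796-118441095 on the plus strand, Gzmk at chr13:113180916-113181215 on the minus strand and Id3 at chr4:136143572-136143871 on the plus strand.
Ifng: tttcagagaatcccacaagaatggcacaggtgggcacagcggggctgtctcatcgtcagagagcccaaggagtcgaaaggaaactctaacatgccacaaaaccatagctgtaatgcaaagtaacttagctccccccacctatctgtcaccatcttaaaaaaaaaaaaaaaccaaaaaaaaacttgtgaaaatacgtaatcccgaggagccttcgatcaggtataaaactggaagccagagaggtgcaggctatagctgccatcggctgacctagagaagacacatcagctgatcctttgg
Gzmk: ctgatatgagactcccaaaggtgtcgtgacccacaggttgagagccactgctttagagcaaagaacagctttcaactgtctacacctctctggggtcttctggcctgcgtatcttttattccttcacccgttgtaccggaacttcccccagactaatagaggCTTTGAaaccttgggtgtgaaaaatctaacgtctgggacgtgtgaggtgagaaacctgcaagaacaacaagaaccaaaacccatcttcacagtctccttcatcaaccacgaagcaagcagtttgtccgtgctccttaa
Id3: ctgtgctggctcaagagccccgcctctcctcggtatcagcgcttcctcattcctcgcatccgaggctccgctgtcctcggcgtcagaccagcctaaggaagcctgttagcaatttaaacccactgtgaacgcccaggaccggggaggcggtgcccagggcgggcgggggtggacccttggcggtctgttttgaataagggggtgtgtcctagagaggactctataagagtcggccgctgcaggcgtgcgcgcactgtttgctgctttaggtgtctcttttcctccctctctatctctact
The Gzmk window held 1 match, which began 88 bases before the start, and the other windows held none. Over all promoter windows, 16% held the motif. Among genes called in both readings, it was in 5 of 33 windows (15.2%) of the 23 matched genes in more members and in 13 of 49 windows (26.5%) of the 38 matched genes in fewer members, since a gene can have several windows. A match is a run of letters and not a measured binding site.

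Some granule genes were in nearly every cell and others varied. Gzmb, the main apoptosis-inducing granzyme, was above 0.7 in 129 of 129 members and 95.7% of Tcf7-positive cells, and Gzma in 98.5% of members and 91.4% of Tcf7-positive cells. Gzmk, a granzyme of memory-like effectors, differed: it was above 0.7 in 89 members (69%, 60.2 to 76.8%) and in 26 Tcf7-positive cells (37.1%, 25.9 to 49.5%). Prf1, which encodes perforin, was above 0.7 in 84.5% of members and 70% of Tcf7-positive cells, and its shift-removed shares of 76% of members and 44.3% of Tcf7-positive cells passed the size rule. Of 12 measured granule genes, 8 reached the minimum share. Of these 1 was in more members (Gzmk) and 1 in fewer (Lamp1), against 4.47% and 8.05% of all genes. Lamp1, a lysosomal membrane protein, was at 54.3% of members and 81.4% of Tcf7-positive cells.

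Among chemokines, Ccl4 was above 0.7 in 72 members (55.8%, 46.8 to 64.5%) and in 17 Tcf7-positive cells (24.3%, 14.8 to 36%), and Ccl3 in 35.7% of members and 20% of Tcf7-positive cells. Ccl5 differed by reading: its shares above 0.7 were 88.4% in members and 91.4% in Tcf7-positive cells, and its shift-removed shares were 77.5% (69.3 to 84.4%) in members and 48.6% (36.4 to 60.8%) in Tcf7-positive cells. Many Tcf7-positive cells had Ccl5 values between 1 and 1.5, in the narrow peak of the plot of values per cell. Xcl1, a chemokine that attracts cross-presenting dendritic cells, went the other way at 11.6% of members and 24.3% of Tcf7-positive cells; among cells with 300 or more genes its difference was 2.08 points in favour of members.

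**Figure D3:**
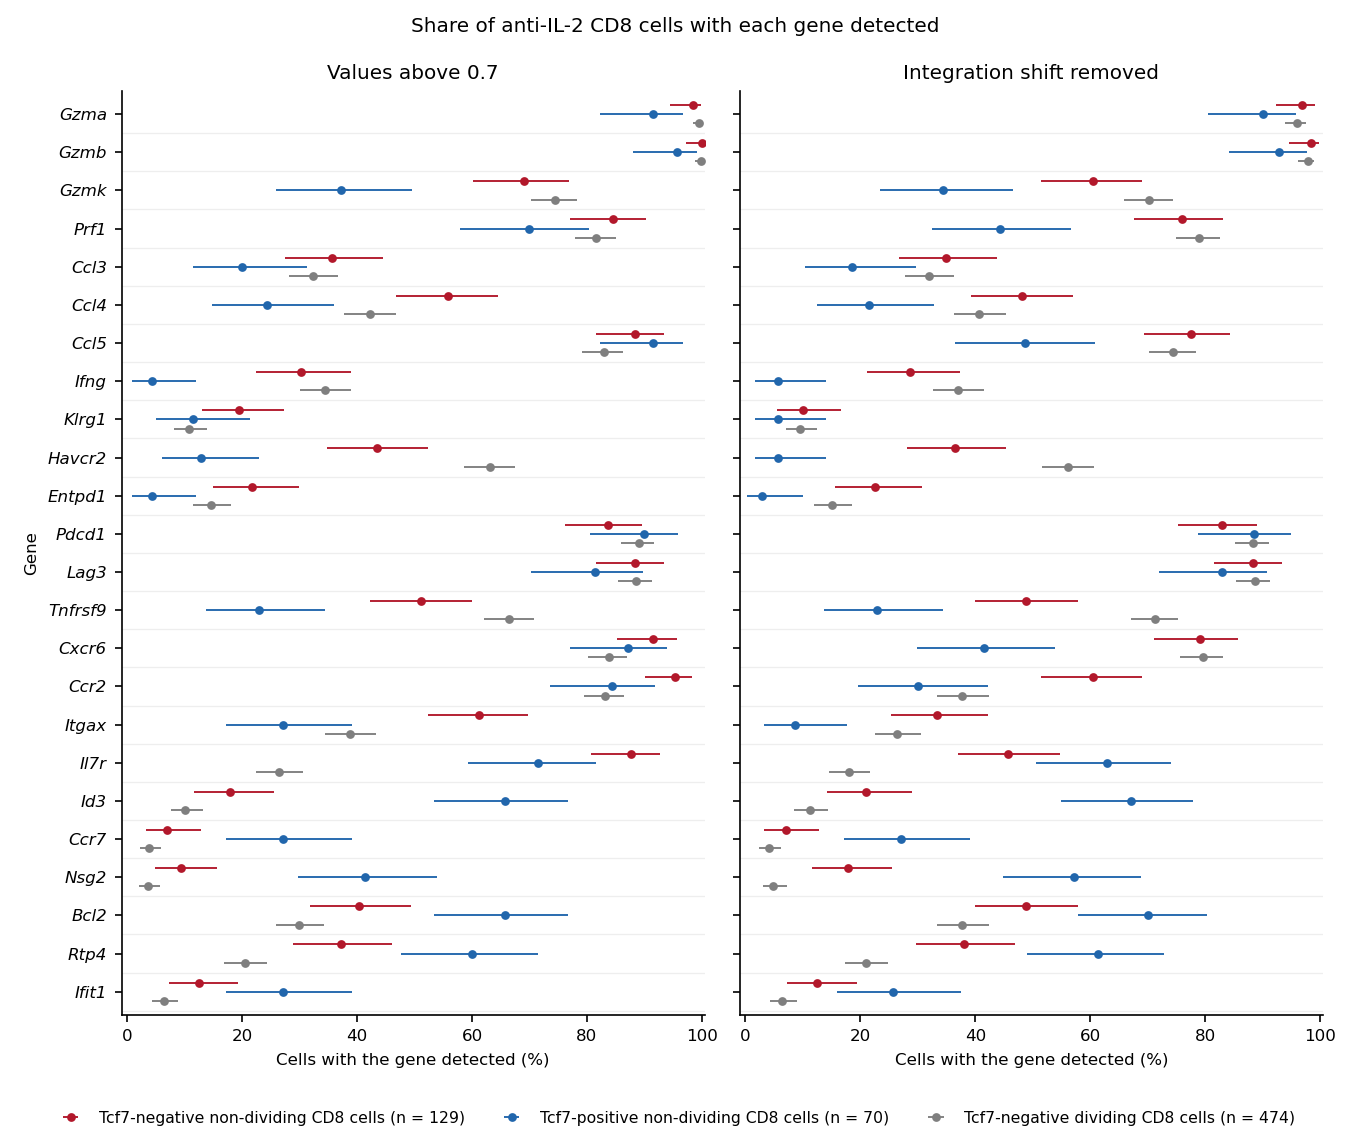
Share of cells with each of 24 genes detected (x axis, percent) in members, Tcf7-positive non-dividing and Tcf7-negative dividing CD8 cells, above 0.7 (left) and after removal of the integration shift (right); bars are exact 95% binomial intervals. Ifng, Gzmk, Ccl4 and Havcr2 lie higher in members than in Tcf7-positive cells in both panels, Id3, Nsg2 and Ccr7 lie lower, and Ccl5, Prf1, Cxcr6, Ccr2, Itgax and Il7r move most between the panels.

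The inhibitory receptor genes were called in both directions. Pdcd1, which encodes PD-1, was above 0.7 in 83.7% of members and 90% of Tcf7-positive cells, and Lag3, a receptor for MHC class II, in 88.4% of members and 81.4% of Tcf7-positive cells. Havcr2, which encodes TIM-3, was above 0.7 in 56 members (43.4%, 34.7 to 52.4%) and 9 Tcf7-positive cells (12.9%, 6.05 to 23%). Its shift-removed shares were 36.4% of members and 5.71% of Tcf7-positive cells, and with values above 0.5 read as detected the difference turned to -10.29 points. Entpd1, which encodes the ectonucleotidase CD39, was above 0.7 in 28 members (21.7%, 14.9 to 29.8%) and 3 Tcf7-positive cells (4.29%, 0.893 to 12%). Of 16 measured genes of the inhibitory list, 15 reached the minimum share, and the list's median log2 ratio was -0.04. There were 3 in more members (Havcr2, Entpd1 and the transcription factor gene Bhlhe40) and 2 in fewer (Cd200, called above 0.7 only, and Tox2). Over all genes 4.47% were in more members and 8.05% in fewer.

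Co-stimulation and cytokine receptor genes followed. Tnfrsf9, which encodes the co-stimulatory receptor 4-1BB, was above 0.7 in 51.2% of members and 22.9% of Tcf7-positive cells. Il2ra, the high-affinity chain of the IL-2 receptor, was above 0.7 in 24 members (18.6%, 12.3 to 26.4%) and 5 Tcf7-positive cells (7.14%, 2.36 to 15.9%), and its shift-removed shares were 13.2% of members and 1.43% of Tcf7-positive cells; thinned to 6000 UMIs it no longer passed, at 7.22% of members and 0.301% of Tcf7-positive cells. Il12rb2, the gene of an IL-12-binding receptor subunit, was above 0.7 in 19.4% of members and 5.71% of Tcf7-positive cells, and its shift-removed shares of 10.1% of members and 2.86% of Tcf7-positive cells did not pass the size rule. In the list of IL-2 receptor and STAT5 target genes, 8 of 10 measured genes reached the minimum share. Of these 2 were in more members (Il2ra and Bhlhe40) and 3 in fewer, against 4.47% and 8.05% of all genes. Those in fewer were Socs1, a feedback inhibitor of cytokine signalling, Pim2, a survival kinase, and Bcl2, an inhibitor of apoptosis. Pim2 was above 0.7 in 35.7% of members and 65.7% of Tcf7-positive cells, Socs1 in 20.2% of members and 45.7% of Tcf7-positive cells, and Bcl2 in 40.3% of members and 65.7% of Tcf7-positive cells, where the shift-removed Bcl2 shares of 48.8% of members and 70% of Tcf7-positive cells did not pass the size rule.

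Genes of homing receptors and integrins were called in both directions. Those of lymphoid entry were in fewer members: Ccr7, the receptor that guides cells into lymph nodes, was above 0.7 in 6.98% of members and 27.1% of Tcf7-positive cells, and Cxcr5, a follicle-homing receptor, in 5.43% of members and 31.4% of Tcf7-positive cells. Ccr6, a receptor for CCL20, was above 0.7 in 3.88% of members and 17.1% of Tcf7-positive cells. An integrin gene was in more members: Itgax, which encodes CD11c, was above 0.7 in 61.2% of members and 27.1% of Tcf7-positive cells, with shift-removed shares of 33.3% of members (25.3 to 42.2%) and 8.57% of Tcf7-positive cells (3.21 to 17.7%). The last settings of the shift estimate were chosen after the members' Il7r and Itgax values were seen. The shift-removed reading is thus not an independent check for Itgax. Cxcr6 and Ccr2, receptors for CXCL16 and CCL2, passed the size rule after shift removal alone: Cxcr6 was found in 79.1% of members and 41.4% of Tcf7-positive cells, and Ccr2 in 60.5% of members and 30% of Tcf7-positive cells. Of 14 homing genes counted, 10 reached the minimum share. Above 0.7, 1 was in more members and 3 in fewer, against 4.47% and 8.05% of all genes. After shift removal the counts were 3 and 3, against 6.69% and 7.21% of all genes.

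Genes of the naive, memory and stem-like list were called mostly in 1 direction. Of its 16 genes counted besides Tcf7, 7 were in fewer members and 1 in more, with a median log2 ratio of -1.37 over the 13 at the minimum share. Over all genes 8.05% were in fewer members and 4.47% in more. Id3, a transcriptional regulator of memory T cells, was above 0.7 in 23 members (17.8%, 11.7 to 25.5%) and 46 Tcf7-positive cells (65.7%, 53.4 to 76.7%). Nsg2, a neuronal vesicle protein gene that is also transcribed in naive T cells, was above 0.7 in 9.3% of members and 41.4% of Tcf7-positive cells. P2rx7, the gene of an ATP-gated channel, was above 0.7 in 0 of 129 members, which allows up to 2.33%, and in 11 Tcf7-positive cells (15.7%); it was not called after thinning. The gene in more members was Eomes, a T-box factor of effector and memory CD8 T cells, at 38% of members and 24.3% of Tcf7-positive cells; its shift-removed shares of 36.4% of members and 25.7% of Tcf7-positive cells did not pass the size rule, and among cells with 300 or more genes the difference turned to -4.17 points. Il7r itself did not pass the rule here, at 87.6% of members and 71.4% of Tcf7-positive cells above 0.7, and at 45.7% of members and 62.9% of Tcf7-positive cells after shift removal, so its order depended on the reading.

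Some type I interferon response genes were also in fewer members than Tcf7-positive cells. Of 27 measured genes, 24 reached the minimum share, of which 6 were in fewer members, 0 were in more and 18 were neither, against 8.05% of all genes in fewer members; their median log2 ratio was -0.62. Ifit1, an antiviral RNA-binding protein, was above 0.7 in 16 members (12.4%, 7.26 to 19.4%) and 19 Tcf7-positive cells (27.1%, 17.2 to 39.1%). Rtp4, an interferon-induced chaperone of receptors, was above 0.7 in 37.2% of members and 60% of Tcf7-positive cells. The others were Ifit3, Ifit3b, Mx1 and Cmpk2, each between 6.2% and 10.8% of members and between 20% and 22.9% of Tcf7-positive cells. After thinning Mx1 and Cmpk2 were no longer called.

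Compared with Tcf7-negative dividing CD8 cells, the members held fewer genes of the cell cycle, as the rule set them to, and no granule, chemokine or terminal effector gene was called in either reading. Of 908 genes at 5% or more, 10 were in more members (1.1%) and 356 in fewer (39.2%), with a median log2 ratio over all genes of -0.61. With the shift removed 0.989% were in more and 40.3% in fewer, and thinned to 6000 UMIs per cell 3.62% and 27.9%. Of the 356 and 10 genes called above 0.7, 207 and 8 were still called after thinning. Of 57 measured mitosis genes 49 were in fewer members, and of 26 replication genes 24; these follow the rule and are not results. The minimum share was reached by 9 of 12 measured granule genes, 4 of 9 chemokine genes and 14 of 14 terminal effector genes. Only these could be called, and none passed the size rule above 0.7 or with the shift removed. After thinning, Ccl4 was in 37% of members and 23.4% of dividing cells, and it and Anxa1 passed. Gzmk was above 0.7 in 69% of members and 74.5% of dividing cells, Prf1 in 84.5% of members and 81.7% of dividing cells, and Ifng in 30.2% of members and 34.4% of dividing cells.

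Il7r was among the genes in more members. It was above 0.7 in 113 members (87.6%, 80.6 to 92.7%) and 125 of 474 dividing cells (26.4%, 22.5 to 30.6%), and its shift-removed shares were 45.7% of members (36.9 to 54.7%) and 17.9% of dividing cells (14.6 to 21.7%). Of 27 measured type I interferon genes, 21 reached the minimum share. Of these 3 were also in more members and 0 in fewer, against 1.1% and 39.2% of all genes. They were Oas1a, a sensor of double-stranded RNA, at 28.7% of members and 14.8% of dividing cells, Rtp4 at 37.2% of members and 20.5% of dividing cells, and Slfn1, a growth-regulatory gene, at 55% of members and 31.9% of dividing cells. Pydc4, a pyrin-domain gene, was above 0.7 in 35.7% of members and 13.3% of dividing cells, and Crtam, an adhesion receptor of activated CD8 T cells, in 37.2% of members and 20.5% of dividing cells. All 6 of these genes were called in both readings and after thinning. After thinning, 17 of the interferon genes reached the minimum share and 5 were in more members, against 3.62% of all genes. Isg15 and Irf7 were added there. Ctrb1, a pancreatic chymotrypsinogen gene, was above 0.7 in 86% of members and 25.1% of dividing cells, but after shift removal it was in 0 members, which allows up to 2.33%, and in 1.48% of dividing cells; by this estimate its values above 0.7 belonged to cells without a transcript. Itgax was above 0.7 in 61.2% of members and 38.8% of dividing cells, and its shift-removed shares of 33.3% of members and 26.4% of dividing cells did not pass the size rule. The shift-removed reading is not an independent check for Il7r and Itgax, whose values were seen before its last settings were chosen.

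Of 25 measured genes induced by T cell receptor signals, 5 were in fewer members than dividing cells and 0 in more, a smaller part than over all genes, and their median log2 ratio was -0.38; after thinning 0 were in fewer members. Among genes of IL-2 signalling, Il2ra was above 0.7 in 18.6% of members (12.3 to 26.4%) and 31.9% of dividing cells (27.7 to 36.3%), and Myc, a driver of growth, in 15.5% of members and 26.2% of dividing cells. When dividing cells were weighted to the genes per cell of the members, those differences turned to 6.53 and 5.84 points in favour of members, and after thinning neither gene was called. Havcr2 was above 0.7 in 43.4% of members and 63.1% of dividing cells, and its shift-removed shares of 36.4% of members and 56.1% of dividing cells passed the size rule, which it did not after thinning. Tnfrsf9, at 51.2% of members and 66.5% of dividing cells, did not.

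The tacrolimus library gave the same contrast in other cells, with whole UMIs and no shift. There 149 of 1001 CD8 cells met the rule (14.9%, 12.7 to 17.2%) and 822 were Tcf7-negative and dividing. Of 898 genes at 5% or more, 5 were in more non-dividing cells (0.557%) and 384 in fewer (42.8%). Il7r was found in 53.7% of the non-dividing cells (45.3 to 61.9%) and 34.5% of the dividing cells (31.3 to 37.9%). Pydc4 was found in 22.8% of the non-dividing cells and 9.73% of the dividing cells, Rtp4 in 31.5% of the non-dividing cells and 15.1% of the dividing cells, and Slfn1 in 51% of the non-dividing cells and 33.6% of the dividing cells, all past the size rule. Crtam, at 16.8% of the non-dividing cells and 20.6% of the dividing cells, and Oas1a, at 9.4% of the non-dividing cells and 7.18% of the dividing cells, did not pass it there. The dividing cells of that library were deeper, at a median of 15171 UMIs against 8775 in its non-dividing cells. This contrast was not thinned to 1 depth.

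Against all 649 other CD8 cells together, 7 of 908 genes were in more members (0.771%) and 338 in fewer (37.2%). Those in more members were Il7r, Ctrb1, Pydc4, Entpd1, Itgax, Wdr95 and Apobec2. With the shift removed, when 0.549% of genes were in more members and 38.2% in fewer, Il7r, Pydc4, Entpd1 and Itgax were still called. For Il7r and Itgax this is not an independent check, for the reason given above. Thinned to 6000 UMIs, 2.19% were in more and 25.3% in fewer, and of the 7 genes Il7r, Pydc4, Itgax and Apobec2 were called and Entpd1 was not. Without thinning Entpd1 was above 0.7 in 21.7% of members and 11.6% of the other CD8 cells, and Pydc4 in 35.7% of members and 19% of the other CD8 cells.

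Within the members, Ccl5, Prf1 and Gzmk were often found in the same cells. This description uses shift-removed detection in 1 library, where deeper cells show more of every gene, and no test was made. Of 100 members with Ccl5, 90% had Prf1, against 27.6% of those without Ccl5. Gzmk was found in 73% of members with Ccl5 and in 17.2% of those without it. Some other pairs did not follow: Gzmk was found in 57.3% of members with Klrd1, an NK receptor chain, and 67.5% of those without, and Prf1 in 76.9% of the 13 members with Klrg1 and 75.9% of those without. Members with Id3, 27 in number, went the other way: 37% of them had Prf1 and 3.7% had Havcr2, against 86.3% and 45.1% of the members without Id3.

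**Figure D4:**
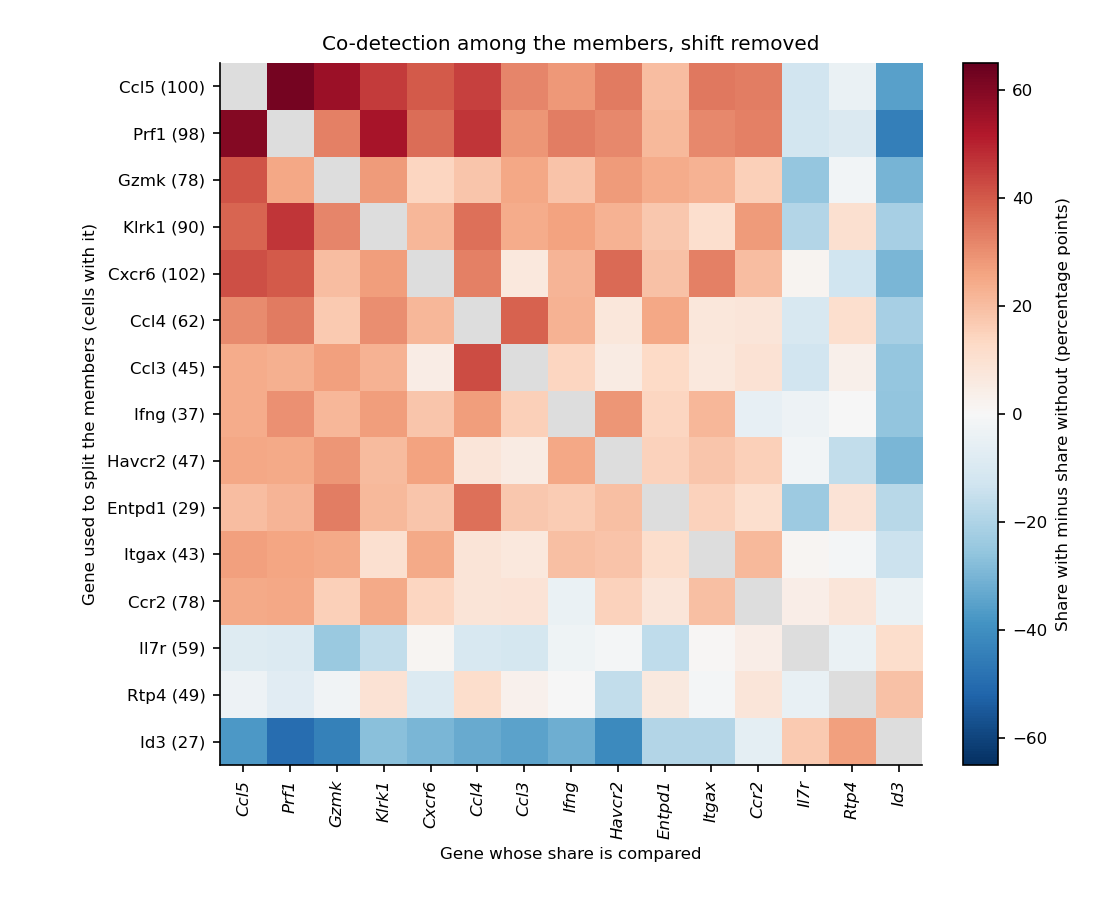
Difference in the share of members with the column gene between members with and without the row gene (colour, percentage points), after removal of the integration shift; grey is the gene itself and the numbers beside row names are cells. Ccl5, Prf1, Gzmk, Klrk1, Cxcr6 and Ccl4 rows are red among themselves and blue under Id3.

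Il7r and Klrg1, which mark memory precursors and terminal effectors in infection, divided the members unevenly. Il7r without Klrg1 was found in 55 members (42.6%, 34 to 51.6%), Klrg1 without Il7r in 9 (6.98%, 3.24 to 12.8%), both in 4 (3.1%) and neither in 61 (47.3%, 38.4 to 56.3%). Nearly all members had some granule gene: the median member held 4 of 8 measured granzyme and perforin genes, against 3 in Tcf7-positive non-dividing cells and 4 in Tcf7-negative dividing cells. At least 3 of the 8 were found in 82.2% of members, 54.3% of Tcf7-positive cells and 89.2% of dividing cells. At least 3 of 7 inhibitory receptor and ectoenzyme genes were found in 84.5% of members, 84.3% of Tcf7-positive cells and 85.9% of dividing cells. The groups thus had like shares by the second count and not by the first.

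The 28 members with a Tcf7 UMI after shift removal differed from those without one. Id3 was found in 60.7% of them (40.6 to 78.5%) and in 9.9% of the others (4.85 to 17.5%), Nsg2 in 67.9% of members with a Tcf7 UMI and 3.96% of those without, and Ccr7 in 28.6% of members with a Tcf7 UMI and 0.99% of those without. Effector genes had the opposite order: Ccl5 was found in 42.9% (24.5 to 62.8%) of members with a Tcf7 UMI and 87.1% (79 to 93%) of those without, Gzmk in 21.4% of members with a Tcf7 UMI and 71.3% of those without, and Entpd1 in 3.57% of members with a Tcf7 UMI and 27.7% of those without. Gzmb, Pdcd1 and Tox did not separate them, at 100%, 85.7% and 78.6% of members with a Tcf7 UMI and 98%, 82.2% and 73.3% of those without. The estimated shift is shared among the 30 nearest cells, so this split also draws on the other genes of those neighbours.

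Side by side with tacrolimus, the members made up a like share of CD8 cells, at 16.6% under anti-IL-2 and 14.9% under tacrolimus. Other CD8 groups differed in share: Tcf7-negative dividing cells were 474 of 778 CD8 cells under anti-IL-2 and 822 of 1001 under tacrolimus, and Tcf7-positive non-dividing cells were 70 of 778 CD8 cells under anti-IL-2 and 9 of 1001 under tacrolimus. Tcf7-negative cells were thus 64.8% (57.8 to 71.4%) of the non-dividing CD8 cells under anti-IL-2 and 94.3% (89.5 to 97.4%) under tacrolimus. The cut of 0.7 was applied to shifted values under anti-IL-2 and to unshifted values under tacrolimus, so these shares rest on unlike readings. With the shift removed, 28 of the 129 members held a Tcf7 UMI. Treatment and library cannot be told apart here, and the fitted median depth was 11323 UMIs in members and 8775 in the tacrolimus cells. The anti-IL-2 totals are fitted and ran somewhat high in simulated libraries, so this comparison of depth is approximate.

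Of 821 genes at 5% or more, 31 were in more members than in tacrolimus cells chosen by the same rule (3.78%) and 53 in fewer (6.46%), and 26 and 53 of them were called after shift removal too, when 3.53% of genes were in more and 9.38% in fewer. Thinned to 6000 UMIs, with 1.55% in more and 12% in fewer, 9 of the 31 and 33 of the 53 remained called. The reading above 0.7 understated differences between libraries in simulated libraries. Genes raised 4-fold there had true median differences of 27.4 and 28.3 points. These were read as 12.5 and 16.1 points above 0.7, and as 24.3 and 24.8 points with the shift removed. Genes lowered to 0.25-fold were understated above 0.7 too. Tox, a transcription factor of chronically stimulated T cells, was found in 74.4% of members (66 to 81.7%) by shift-removed share, or 41.9% above 0.7, and in 14.8% of tacrolimus cells (9.49 to 21.5%). Bcl2 was found in 48.8% of members and 13.4% of tacrolimus cells, Id3 in 20.9% of members and 2.69% of tacrolimus cells, and Crtam in 41.9% of members and 16.8% of tacrolimus cells, all by shift-removed share in members and all called after thinning. The members had been chosen on shifted Tcf7 values and the tacrolimus cells on unshifted ones. Among members without a Tcf7 UMI after shift removal, Id3 was found in 9.9% (4.85 to 17.5%) and Tox in 73.3%. The Id3 difference was thus smaller in those members. Bcl2 and Crtam were not split in this way. Cd200, a ligand that restrains myeloid cells, at 21.7% of members and 6.71% of tacrolimus cells, Tox2 at 14.7% of members and 2.01% of tacrolimus cells and Xcl1 at 11.6% of members and 0.671% of tacrolimus cells were called without thinning and not with it. Other genes of the same lists were in fewer members. Il12rb2 was so called in every reading, and Il2ra and Itgax after shift removal and after thinning. Itgax was found in 33.3% of members by shift-removed share and 54.4% of tacrolimus cells. Havcr2 and Bhlhe40 were called in fewer members after thinning only.

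**Figure D5:**
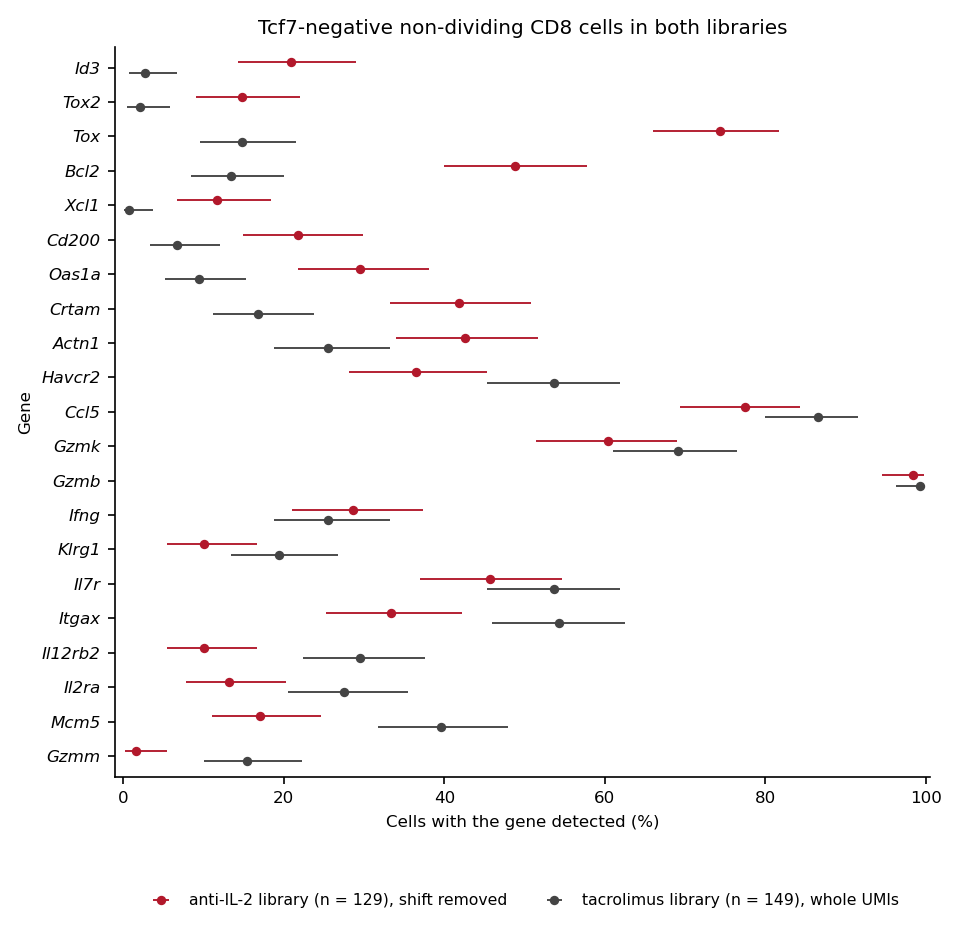
Share of cells with each of 21 genes (x axis, percent) in the 129 anti-IL-2 members after shift removal and in the 149 tacrolimus cells chosen by the same rule; bars are exact 95% binomial intervals. Tox, Bcl2, Id3 and Crtam lie higher in members, Itgax, Il12rb2, Mcm5 and Gzmm lie lower, and Gzmb is near 100% in both.

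Of 12 measured granule genes, 10 reached the minimum share after shift removal. Of these 1, Gzmm, passed the size rule between the libraries, in fewer members, against 9.38% of all genes. Gzmb was found in 98.5% of members by shift-removed share and 99.3% of tacrolimus cells, Prf1 in 76% of members and 75.8% of tacrolimus cells, and Ifng in 28.7% of members and 25.5% of tacrolimus cells. Gzmm, another granzyme, was found in 2 members (1.55%) and 15.4% of tacrolimus cells. Of 26 measured replication genes 25 reached the minimum share after shift removal. Of these 11 were in fewer members and 0 in more, against 9.38% and 3.53% of all genes. The helicase subunit gene Mcm5 was 1 of the 11, at 17% of members and 39.6% of tacrolimus cells. Exocrine pancreas genes, which T cells do not make, also differed: of 32 measured, 6 were in fewer members after shift removal, against 9.38% of all genes. Reg3b was in 0 of 129 members and 21.5% of tacrolimus cells. The part of free RNA in the other differences was not tested.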

How the data were processed

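The deposited tables hold natural log values for 2000 genes; Cell Ranger 3.1.0, Seurat and mm10 are named in the submitters' processing notes, without settings. The tacrolimus values are the natural log of 1 plus UMIs per 50000, per their values as deposited. The anti-IL-2 values carry a further shift, as deposited, with the pattern of a Seurat integration; its method is not stated. The tacrolimus table also held 308 identical copies of anti-IL-2 cells, which were left out.

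Members, groups and 25 gene lists were chosen with earlier results of these data known. Detection was read above 0.7, and again after a shift shared by the 30 nearest cells was estimated so that each gene's values fell on whole UMIs. That procedure was tested on simulated integrated libraries made with Seurat 5.3.0 (R 4.3.3). Its settings were chosen on 2 simulated libraries after 1 first form, 8 settings for cell totals and 22 for the shift; the last of these were chosen after the members' Il7r and Itgax values were seen, and 2 further simulated libraries checked the result. These share their cell states, so states rare under tacrolimus are not covered. In the 2 further libraries, errors were measured for differences between cells by the members' rule and Tcf7-negative dividing cells. These differences erred for most genes by at most 0.759 and 1.96 points with the shift removed. After thinning they erred for most genes by at most 6.86 and 6.79 points. The largest errors were 16.5 and 15.2 points with the shift removed, 19 and 22.7 thinned, and 40.6 and 45.1 above 0.7. These exceed the smallest difference of the size rule, so a call for a single gene can be wrong in any reading. Differences against Tcf7-positive non-dividing cells, of which the tacrolimus library held 9, were not checked in this way. Nor were differences between the libraries. For 34 cells no total could be fitted. The thinning depth of 6000 UMIs, the gene sets counted within members and the within-tacrolimus contrast were chosen after the data were seen.

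Named genes were those of the rule, the 12 highest and lowest ratios against all other CD8 cells, 8 against each subset, list members past the size rule with up to 4 that were not, and the markers; genes called only after shift removal or within tacrolimus were added. Shares have exact Clopper-Pearson intervals (scipy 1.17.1), which like the limits for a count of 0 (3 cells of the total) cover counting error only. Gene positions are from GENCODE M21. Some genes of the lists are not reported here and were left out of the lists' counts.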

Additional observations from a re-analysis of the deposited data

How the results depend on the processing

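Alternatives changed counts of genes and many of the named genes' differences. Of 104 such differences, thinning moved 29 beyond their interval and reversed 3, removing the shift from rule and shares moved 24 and reversed 2, weighting moved 21 and reversed 2, removing the shift from shares alone moved 15 and reversed 2, values above 0.5 moved 15 and reversed 1, a minimum of 300 genes moved 11 and reversed 2, values above 1.0 moved 11 and the 2-of-8 division rule moved 3; the other alternatives moved 0. With 300 or more genes per cell, 48 members were left, 17 genes were in more members than all other CD8 cells, 63 in more and 97 in fewer than Tcf7-positive non-dividing cells, and 22 in more than Tcf7-negative dividing cells. Weighting the other cells to the members' genes per cell gave 17 in more and 67 in fewer than all other CD8 cells, and 48 and 104 against dividing cells. Thinning to 6000 UMIs gave 17 and 196 against all other CD8 cells, 28 and 216 against dividing cells, and 11 and 85 against tacrolimus cells. Values above 1.0 gave 58 genes in more members than Tcf7-positive cells; calling cells dividing by 2 of 8 cycle genes gave 14 in more than all other CD8 cells; and removing the shift from the rule too gave 11 against all other CD8 cells and 75 against Tcf7-positive cells. The other alternatives, values above 0.5, no minimum of genes, Cd8a required, other-lineage cells left out, the top 5% of genes per cell left out and the shift removed from shares alone, kept these counts within 1.5 times.

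Some differences in shares turned round. For Ctrb1 they were -1.23, -1.38 and -0.75 points against all other CD8 cells, and -1.48, -1.91 and -0.81 points against dividing cells, with the shift removed, with it removed from the rule too, and after thinning. Against Tcf7-positive cells, Havcr2 turned to -10.29 points with values above 0.5, and among cells with 300 genes Eomes turned to -4.17 and Xcl1 to 2.08 points. Against dividing cells, weighting turned Il2ra to 6.53 and Myc to 5.84 points, and thinning turned Myc to 0.67 points. The cause was not tested, and for Ctrb1 the reversals rest on the estimated shift. In the unshifted tacrolimus library Ctrb1 was found in 38.9% of the non-dividing cells and 37% of the dividing cells. No paired analysis was possible because each treatment had 1 library. Leaving out a replicate could not be done for the same reason, and the depth of 1 library limits small shares to the intervals given.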
